A study of Mus musculus with 3 samples.

Results

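The complement components and receptors described here are 7 genes (C1qa, C1qb, C3, C3ar1, C5ar1, Cfp and Cfb), chosen with earlier results of these data known. Their transcripts were taken from the mRNA table by their GENCODE M21 gene symbol. Of these 7 genes, 5 had transcripts that could be analysed (C3, C3ar1, C5ar1, Cfp and Cfb, with 6 transcripts in all), among 15844 genes and 56651 transcripts of that table. C1qa and C1qb, which encode chains of the recognition protein C1q, were not analysed here, so nothing can be said of their level. The libraries hold RNA of apoptotic bodies (ABs), the membrane-bound fragments shed by dying cells, from 3 stages of osteoclast formation in 11-week-old C57BL/6 mice, with 1 library per stage. For BMM-ABs, marrow cells were kept in culture for 24 h and the floating cells then received 50 ng/ml M-CSF for 72 h to give bone marrow macrophages (BMMs), which got no RANKL. For pOC-ABs the macrophages were turned into preosteoclasts with 100 ng/ml RANKL and 30 ng/ml M-CSF over 24 h. For mOC-ABs the same factors were given for 72 h or longer to reach mature osteoclasts. The labels state that all cells were then exposed to 500 μM alendronate for 12 h to make them shed ABs. The study's methods instead name staurosporine as the inducer and a longer time with RANKL for mature osteoclasts. They also give a shorter time with M-CSF for the macrophages and, for cells grown for staining, a higher M-CSF dose with RANKL. The sample titles name the cells, but the series description names the ABs shed by them, and it was followed here. The mice were male according to the study's methods, and the number of animals behind a library is not given in the sources used here.

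Complement is a cascade of blood and tissue proteins that tags particles, attracts leukocytes and lyses membranes. C3 is its central component, whose cleavage leaves C3b on the target and releases the small peptide C3a, and factor B (Cfb) and properdin (Cfp) form and stabilise the alternative pathway convertase that cleaves more C3. C3ar1 and C5ar1 are the G protein-coupled receptors through which myeloid cells sense C3a and C5a. Most circulating complement is made by the liver, while macrophages make C1q, properdin and some C3 locally, and tagging of dying cells by C1q and C3b promotes their uptake by phagocytes.

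The mRNA table summed to between 7387317 and 9100082 reads per library, so that 3 reads, the limit that a count of 0 allows, are between 0.330 and 0.406 reads in every 1000000 reads of that table. With 1 library per stage no difference can be set against a spread between samples, and no p-value is given. The 95% intervals below are exact intervals of the read counts (Poisson for a level, Clopper-Pearson for a ratio between libraries). They cover counting error only, since there is 1 library per stage. The reads carry no molecular identifiers, so copies made by PCR cannot be told from separate molecules, and the intervals do not allow for this. Levels are in RPM, reads per 1000000 reads of the mRNA table, and where 3 values follow each other they stand for BMM-ABs, then pOC-ABs, then mOC-ABs. Ratios are given for pOC-ABs against BMM-ABs (G1), mOC-ABs against BMM-ABs (G2) and mOC-ABs against pOC-ABs (G3). The comparisons share libraries and are therefore not independent of one another. Of the osteoclast markers, 10 of 11 were analysed and their summed level was 417, 633 and 1949 RPM. Among the 9 with at least 20 reads, 8 were more than 2-fold higher in G2, beside 4.16% of all genes at that minimum. The other was Tnfrsf11a, the receptor of RANKL, with a log2 ratio of 0.12 there and -0.47 in G1. Fewer markers were past this limit for G1 (4, beside 4.87% of all genes) and for G3 (7, beside 3.51%). Itgb3 had 6, 3 and 0 reads, too few for a ratio.

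C3, C3ar1 and C5ar1 were lower in the ABs of osteoclast-lineage cells than in BMM-ABs, though C3ar1 in G1 stayed within the 2-fold limit. Cfp stayed within that limit in every comparison. In G2 the C5a receptor gene C5ar1 was 34.4-fold lower, C3 6.94-fold lower and the C3a receptor gene C3ar1 5.03-fold lower, whereas Cfp was 1.19 times its level in BMM-ABs. Of the 5 genes analysed, 4 had at least 20 reads over the 3 libraries, the minimum set for a ratio. Cfb had 10 reads, under this minimum, and enters none of the counts below. A ratio below 0.5 was found for 2 of these 4 genes in G1 (C3 and C5ar1), where 6.07% of all genes with at least 20 reads were below 0.5. It was found for 3 genes in G2, beside 8.99% of all genes, and for the same 3 in G3, beside 6.84% (C3, C3ar1 and C5ar1 in both). None of the 4 had a ratio above 2, which 4.87% of all genes had in G1, 4.16% in G2 and 3.51% in G3, so that 10.9%, 13.2% and 10.3% of all genes were past the 2-fold limit in either direction. The median log2 ratio of the 4 genes was -1.12, -2.56 and -1.44 in G1, G2 and G3, beside -0.02, -0.05 and -0.05 for all genes with at least 20 reads. Since ABs were sequenced in bulk, fewer ABs from cells that hold a transcript and less of it in each AB cannot be told apart.

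**Figure D1:**
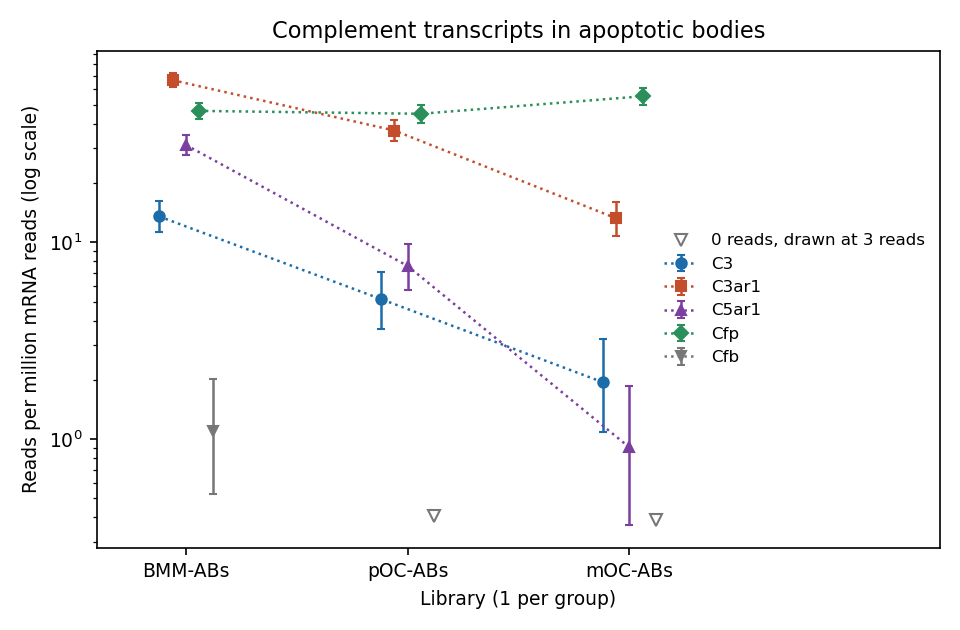
Levels of the 5 complement genes in the 3 libraries, in RPM on a log scale, with exact 95% Poisson intervals (counting error only). C3ar1, C5ar1 and C3 are lowest in mOC-ABs, Cfp lies between 44.9 and 55.2 in all 3, and Cfb is drawn as an open symbol at the level of 3 reads in the libraries where it had none. Dotted lines join the values of a gene and are no time course.

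C5ar1 encodes the receptor through which C5a recruits and activates neutrophils and macrophages. It had 284 reads in BMM-ABs, but 56 in pOC-ABs and only 7 in mOC-ABs, which are 31.2, 7.58 and 0.908 RPM. The intervals of the 3 levels do not overlap (27.7 to 35.1, 5.73 to 9.84 and 0.365 to 1.87). In G1 its log2 ratio was -2.04 (95% interval -2.48 to -1.62), in G2 it was -5.10 (-6.43 to -4.04), and G3 gave -3.06 (-4.44 to -1.92). The fold in G2 rests on the 7 reads of mOC-ABs, and its interval runs from 16.5-fold to 86.2-fold lower. Only 43 of 10997 protein-coding genes with at least 20 reads had a lower ratio in G2. All of these reads lie on ENSMUST00000168818 (chromosome 7, 16246745 to 16259338, minus strand, GRCm38), a transcript of 2 exons and 2540 bases. The other 2 annotated transcripts of the gene were not analysed here.

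C3ar1, the gene of the C3a receptor, had 606, 273 and 102 reads, or 66.6, 37.0 and 13.2 RPM. Each step was larger than the counting error, with intervals of 61.4 to 72.1, 32.7 to 41.6 and 10.8 to 16.1. In G1 the log2 ratio was -0.85 (-1.06 to -0.64), in G2 it was -2.33 (-2.65 to -2.03), and G3 gave -1.48 (-1.82 to -1.15). In G1 the ratio of 0.555 stayed within the 2-fold limit. The reads come from the only annotated transcript of the gene, ENSMUST00000042081 (chromosome 6, 122847138 to 122856161, minus strand), with 2 exons and 4305 bases. The receptors were not lower by the same factor. The ratio of C3ar1 in G1 was 2.28 times that of C5ar1 (exact conditional interval 1.65 to 3.21), and in G2 it was 6.82 times that of C5ar1 (3.14 to 17.6).

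C3 itself was a low-level transcript, with 123, 38 and 15 reads, or 13.5, 5.14 and 1.95 RPM. The intervals (11.2 to 16.1, 3.64 to 7.06 and 1.09 to 3.21) do not overlap. Its log2 ratio in G1 was -1.39 (-1.96 to -0.86) and that in G3 was -1.40 (-2.37 to -0.51), both with an interval that includes the 2-fold limit. In G2 it was -2.80 (-3.68 to -2.02). The listed transcript is ENSMUST00000024988 (chromosome 17, 57203970 to 57228136, minus strand), the full-length form of 41 exons and 5136 bases. The ratio of C3 in G2 was 0.725 times that of its receptor gene C3ar1, with an interval of 0.378 to 1.31 that includes 1. Against C5ar1 it was 4.93 times as high (1.84 to 14.7).

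Cfp encodes properdin, the positive regulator of the alternative pathway convertase. It had 423, 332 and 425 reads, which are 46.5, 44.9 and 55.2 RPM. Between BMM-ABs and pOC-ABs the log2 ratio was -0.05, and its interval of -0.26 to 0.16 includes 0. In mOC-ABs the log2 ratio was above 0, with a value of 0.25 in G2 (0.05 to 0.44) and 0.30 in G3 (0.08 to 0.51). Both ratios are inside the 2-fold limit. Scaled to the total of both tables, the ratio in G2 was 0.15 with an interval that includes 0 (-0.05 to 0.34), and that in G1 was -0.25 with an interval that does not (-0.46 to -0.04). In G2, 77.9% of the protein-coding genes with at least 20 reads had a lower ratio than Cfp. The ratio of C5ar1 in G2 was 0.0246 times that of Cfp (0.00968 to 0.0522), that of C3 was 0.122 times (0.0649 to 0.213), and that of C3ar1 was 0.168 times (0.129 to 0.216).

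The transcript Cfp-201 (ENSMUST00000001156, chromosome X, 20925454 to 20931555, minus strand, 9 exons and 1636 bases) held 98.3% of the gene's reads in BMM-ABs (95% Wilson interval 96.6% to 99.2%). In pOC-ABs it held 98.2% (96.1% to 99.2%), and mOC-ABs had 99.8% (98.7% to 100.0%). The remaining 7, 6 and 1 reads lie on Cfp-202, a processed transcript of 3 exons and 401 bases that encodes no protein. The shares of BMM-ABs and pOC-ABs differed by less than their counting error. Cfp was the only one of the 5 genes with more than 1 listed transcript, so that transcript use could be compared between libraries for this gene alone.

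Cfb encodes factor B, which supplies the protease of the alternative pathway convertase. BMM-ABs held 10 reads of it and the other libraries 0, all on Cfb-202 (ENSMUST00000128767, chromosome 17, 34856374 to 34862518, minus strand, 18 exons and 2751 bases). Against 3 reads per library, and with the 10 reads taken as counted, its level was at least 2.71-fold lower in G1, and in G2 at least 2.82-fold lower. With the counting error of both libraries, the exact interval reaches as near as 1.82-fold lower in G1 and 1.90-fold lower in G2, inside the 2-fold limit. The locus is covered by other annotations. Gm20547, a protein-coding locus on the same strand whose annotated span (chromosome 17, 34856412 to 34882042) overlaps Cfb, had 0, 4 and 1 reads. NONMMUT029347.2, a transcript of the lncRNA table inside Cfb with 323 of its 689 bases in Cfb exons, had 1, 4 and 6 reads. Summing it with Cfb gave 11, 4 and 6 reads, so the size of the difference between the libraries at this locus depends on which transcript the reads were assigned to.

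**Figure D2:**
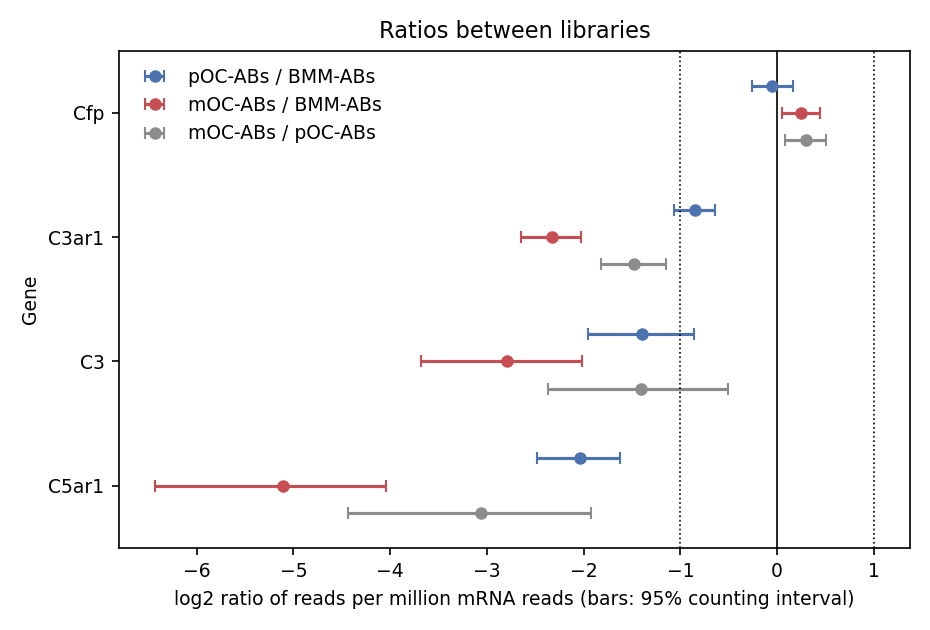
Log2 ratios of the 4 genes with at least 20 reads, in each comparison, with exact 95% Clopper-Pearson intervals (counting error only). Dotted lines mark the 2-fold limit. C5ar1 in G2 is the lowest at -5.10, and all 3 ratios of Cfp lie between -0.05 and 0.30.

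Per length, Cfp had the highest level of these genes in every library, followed by C3ar1. By FPKM, in which reads are scaled to the length of the transcript and to library size, BMM-ABs held Cfp (29.9), C3ar1 (15.5), C5ar1 (12.3), C3 (2.63) and Cfb (0.399) in falling order. Each neighbour in this order differed from the next by more than the counting error, the closest pair being C3ar1 and C5ar1 with a ratio of 1.26 (1.09 to 1.45). In pOC-ABs the FPKM was 29.0 for Cfp, 8.58 for C3ar1, 2.98 for C5ar1 and 1.002 for C3, in the same order. In mOC-ABs it was 34.0 for Cfp and 3.07 for C3ar1, an 11.0-fold gap (8.88 to 13.8) that was 1.93-fold in BMM-ABs. There C3 (0.379) and C5ar1 (0.358) could not be ordered, with a ratio of 1.06 (0.407 to 3.07).

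Set among the 12392 protein-coding genes of the table, C5ar1 had a higher FPKM than 49.2%, 24.2% and 12.5% of them. C3ar1 moved from above 56.2% of the genes to above 26.1%, and C3 from above 22.3% to above 12.7%. Cfp stood above 75.5% of the genes in BMM-ABs and above 80.2% in mOC-ABs.

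**Figure D3:**
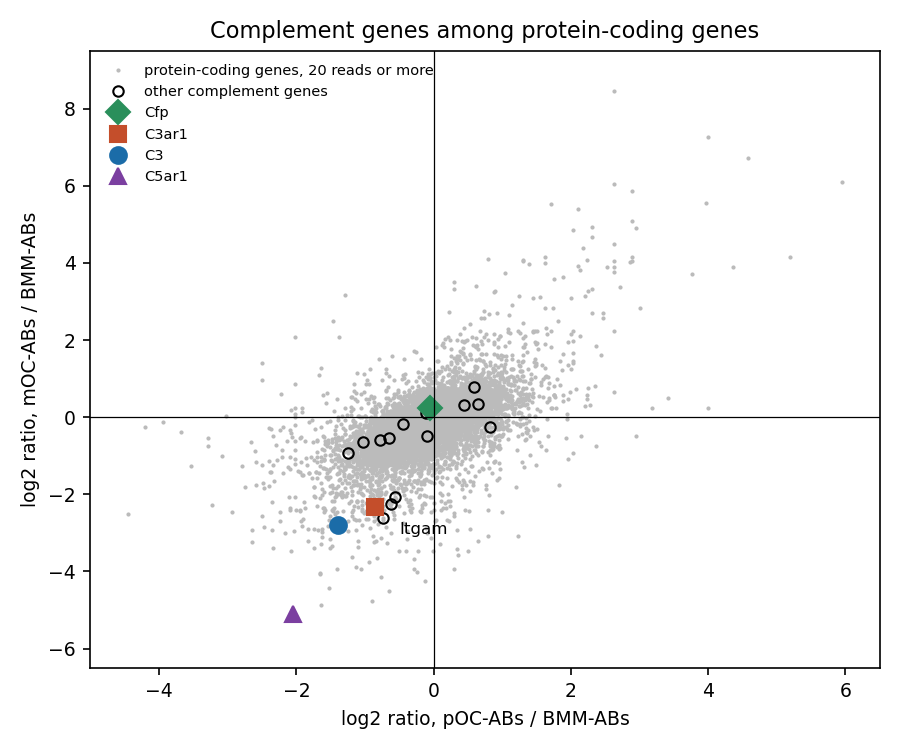
Log2 ratio in G2 against that in G1 for 10928 protein-coding genes with at least 20 reads and reads in all 3 libraries (grey), with the 4 complement genes (coloured) and 14 other complement genes (open circles, Itgam labelled). A further 71 protein-coding genes with no read in some library are not drawn. Both axes share the BMM-ABs library. C5ar1 lies at -2.04 and -5.10, at the lower edge of the cloud, and Cfp lies near its centre.

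The genes with the most similar pair of ratios were sought among 7246 other protein-coding genes with at least 500 reads, by the distance between the log2 ratios in G1 and G2, a likeness over 3 libraries only. Of the genes nearest to C3, Slc2a6 lay at a distance of 0.15 log2 units (892, 250 and 106 reads). For C3ar1 the nearest were Fcgr3 at 0.02 (312, 139 and 52 reads) and Ly86 at 0.07. For C5ar1, whose own reads are below that minimum, the nearest candidate was Cybb at 0.84 (2769, 783 and 108 reads). The log2 ratio of Cybb in G2, -4.44, is inside the interval of C5ar1 (-6.43 to -4.04). That in G1, -1.52, is outside it (-2.48 to -1.62). Next was Lyz1 at 1.96 (3986, 1507 and 325 reads), a lysozyme gene whose reads may be shared with its close copy Lyz2. For Cfp, in the dense centre of the cloud, Eif2b5 and Rasgef1b both lay at 0.01.

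The wider complement system was described with a list of 45 other genes, of which 21 were analysed and 16 had at least 20 reads. Beside the shares of all genes given above, 3 of the 16 (18.75%) were more than 2-fold lower in G1 (Masp2 and Itgb2 among them), 5 (31.25%) were in G2 (among them C1ra, C1rb, C4b and Itgam) and 6 (37.5%) were in G3 (C1ra, C1rb, C4b, C8g and Itgam among them). None of the 16 was more than 2-fold higher in any comparison. Their median log2 ratios in G1, G2 and G3 were -0.50, -0.57 and -0.22. The counts of C4b (17, 9 and 3 reads) and C1rb (11, 9 and 0) are small, and near-identical copies of these genes (C4a and C1ra) can share their reads. Of the genes of the cytolytic end of the cascade, 1 of 7 was analysed, C8g, with 7, 10 and 5 reads.

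Among the regulators, Cr1l, the membrane regulator Crry that limits convertases on rodent cells, had 35.1, 32.9 and 24.8 RPM. Its log2 ratio was -0.09 in G1 (-0.34 to 0.15) and -0.50 in G2 (-0.77 to -0.24). The interval in G1 includes 0, and in both comparisons the whole interval lies inside the 2-fold limit.

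Among the receptors and binding proteins, Itgam, the alpha chain of complement receptor CR3, had 142, 85.3 and 23.4 RPM. Its log2 ratio was -0.74 (-0.88 to -0.60) in G1 and -2.60 (-2.84 to -2.38) in G2. Its partner chain Itgb2 had 277.7, 136.2 and 179.0 RPM, and its log2 ratio was -1.03 (-1.13 to -0.92) in G1 and -0.63 (-0.73 to -0.54) in G2. Relative to BMM-ABs, Itgb2 was the lower of the pair in G1 and Itgam in G2, with intervals that do not overlap in either comparison. Calr and C1qbp, whose products bind C1q and have other functions in most cells, stayed within the 2-fold limit in all 3 comparisons. Calr had 449.2, 329.3 and 396.5 RPM, with a log2 ratio of -0.18 in G2 (-0.25 to -0.11), and C1qbp had 152.5, 207.2 and 190.0, with a log2 ratio of 0.32 (0.21 to 0.42). C5ar2, the other C5a receptor gene, had 13, 3 and 3 reads, too few for the list.

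**Figure D4:**
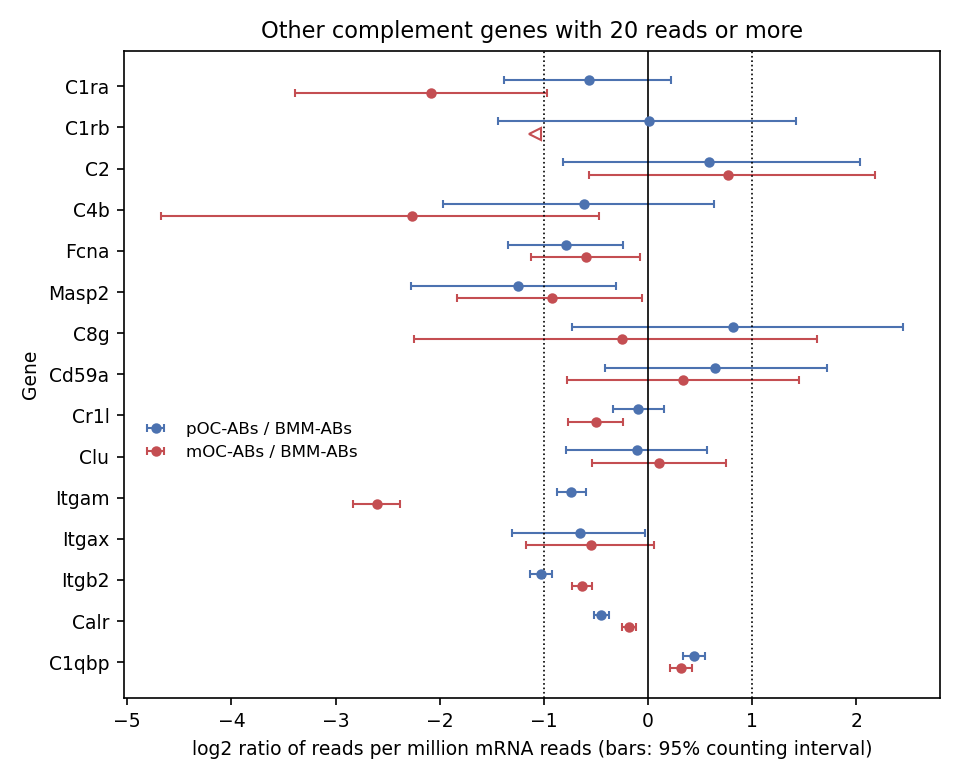
Log2 ratios of 15 other complement genes with at least 20 reads, in G1 and G2, with exact 95% Clopper-Pearson intervals (counting error only) and dotted lines at the 2-fold limit. The open triangle for C1rb marks the upper end of its interval in G2, since it had 0 reads in mOC-ABs. Itgam has the lowest ratio drawn for G2, at -2.60.

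Markers of macrophages moved with these genes in part. All 5 markers on the list were analysed, and their summed level was 2041, 1135 and 1202 RPM. Of the 4 with at least 20 reads, 1 was more than 2-fold lower in G1, beside 6.07% of all genes at that minimum. The count was 3 for G2 (beside 8.99%) and 2 for G3 (beside 6.84%), with Itgam, on both lists, among them each time. Adgre1, which encodes the macrophage surface protein F4/80, had a log2 ratio of -0.99 in G1 and -2.43 in G2, and Csf1r, the M-CSF receptor gene, had -1.60 and -1.10. Cd68, a lysosomal marker shared with osteoclasts, had -0.17 and -0.15, and Mertk had 0, 2 and 5 reads. The part of a lower macrophage content in the ratios of C3, C3ar1 and C5ar1 was not tested. Of the other cell types, stromal markers (3 of 6 analysed) had 7, 1 and 2 reads in sum, B cell markers (2 of 4) 6, 1 and 3, and dendritic cell markers (2 of 4) 21, 21 and 29. The neutrophil and hepatocyte markers were not analysed here.

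The promoters of the 3 genes that were lower and of Cfp, which stayed within the 2-fold limit, are shown so that the genes that moved together can be compared with the one that did not. Each line is the stretch of 250 bases before the RefSeq start site (GRCm38.p6, minus strand, 5′ to 3′), at chr17:57228137-57228386 for C3, chr6:122856158-122856407 for C3ar1, chr7:16259339-16259588 for C5ar1 and chrX:20931556-20931805 for Cfp. Capitals mark matches, on either strand, to GAGGAAGT (PU.1), TGANTCA (AP-1), TTGCNNAA (C/EBP), GGAAAA (NFAT), CACGTG (E-box) or the NF-kappaB and interferon response motifs, and no matches overlapped.
C3: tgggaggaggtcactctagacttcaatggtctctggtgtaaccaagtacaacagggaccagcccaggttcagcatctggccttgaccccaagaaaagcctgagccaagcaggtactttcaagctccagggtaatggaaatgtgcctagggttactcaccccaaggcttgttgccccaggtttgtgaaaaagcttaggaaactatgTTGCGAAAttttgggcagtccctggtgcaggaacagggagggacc
C3ar1: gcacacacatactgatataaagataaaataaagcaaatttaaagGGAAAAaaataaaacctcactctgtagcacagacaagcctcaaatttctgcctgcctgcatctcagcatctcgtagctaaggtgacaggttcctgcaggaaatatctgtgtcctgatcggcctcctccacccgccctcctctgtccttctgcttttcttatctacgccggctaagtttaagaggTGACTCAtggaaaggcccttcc
C5ar1: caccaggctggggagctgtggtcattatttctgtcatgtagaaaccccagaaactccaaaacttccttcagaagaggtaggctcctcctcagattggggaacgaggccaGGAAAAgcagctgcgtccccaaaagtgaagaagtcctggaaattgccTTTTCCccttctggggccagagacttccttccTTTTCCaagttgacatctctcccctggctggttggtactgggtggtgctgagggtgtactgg
Cfp: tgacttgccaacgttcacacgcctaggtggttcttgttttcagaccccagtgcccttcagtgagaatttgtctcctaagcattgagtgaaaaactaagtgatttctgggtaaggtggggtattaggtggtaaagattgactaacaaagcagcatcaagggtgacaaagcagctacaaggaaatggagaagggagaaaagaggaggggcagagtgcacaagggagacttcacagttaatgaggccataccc

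No match was shared by all 3 genes that were lower. C3 held 1 match, TTGCNNAA beginning 45 bases before the start, which occurs in 9.56% of the 32851 RefSeq promoter windows of the same length. C3ar1 held TGANTCA at 22 bases (6.75% of windows) and GGAAAA at 206 bases (20.4%). C5ar1 held GGAAAA at 141, 94 and 62 bases, a string with at least 1 match in 20.4% of windows. A count of 3 or more occurs in 0.256% of windows. That minimum equals the count found in C5ar1 and was used for this string alone, so the share is no measure of rarity. Cfp held none of the 7 letter strings. These are matches of letters in a short window and say nothing of whether a factor binds there.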

How the data were processed

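RNA of apoptotic bodies was sequenced by the authors as paired-end poly-T-selected libraries, 1 per group. The submitters' processing notes name FastQC, HISAT2, StringTie and GRCm38, without versions, and how reads were assigned to transcripts or strands is not given in the sources used here. The authors deposited whole read counts and FPKM per transcript for mRNAs and lncRNAs, and junction read counts with SRPBM, an RPM-like scaling, for circRNAs. The mRNA FPKM equals the counts divided by the summed exon length and by the sum of that table's counts. Deposited columns headed 0, 24 and 72 h were matched to BMM-ABs, pOC-ABs and mOC-ABs.

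Counts were summed per GENCODE M21 gene (229 transcripts had no match), divided by the total of the mRNA table, and kept for ratios from 20 reads over the 3 libraries. A ratio above 2 or below 0.5, the fold limit of the study's methods, was the limit used, and the study's FDR cannot be computed from 1 library per group. Intervals came from scipy 1.17.1 in Python 3.11.15, and TMM factors from edgeR 4.0.16. The interval code was tested on simulated data.

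The genes and lists were chosen with earlier results of these data known, and the motifs likewise. Named were all members, other complement genes (those with 500 reads or more with values), cell markers and the 2 genes nearest in ratios to each member with 100 reads or more. Read counts of C1rb, C4b, C8g and C5ar2 were added after their values were seen. Alternatives were other scalings, FPKM with no pseudocount or 0.1 or 1, protein-coding transcripts only, added lncRNA reads and other read minimums. Promoter sequences are from RefSeq, and 5 of 7 members matched. One gene that these rules name is not reported here, though it is within the list's counts. None of the 1372 circRNAs named a member as host.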

Additional observations from a re-analysis of the deposited data

Results flagged for a closer look

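NONMMUT029347.2, a transcript of the lncRNA table that lies within Cfb (chromosome 17, 34859058 to 34859746, GRCm38), had 4 reads in pOC-ABs and 6 in mOC-ABs. Both counts are higher than the 1 read in BMM-ABs, in a table that the ratios of the complement genes do not use. The exact 95% Poisson intervals of the reads overlap (0.0253 to 5.57 in BMM-ABs, 1.09 to 10.2 in pOC-ABs and 2.20 to 13.1 in mOC-ABs). Overlap of separate intervals does not decide whether the libraries differ, and no interval of their ratio was computed for this transcript. The FPKM was 0.114 in BMM-ABs, against 0.489 in pOC-ABs and 0.753 in mOC-ABs.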

How the results depend on the processing

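No replicate exists, so no spread between samples could be measured. No paired analysis was possible because each group has 1 library. Over 9 alternatives to the scaling, unit or choice of transcripts, no ratio past the 2-fold limit changed sign for C3, C3ar1, C5ar1 or Cfp. Of the 108 values, 3 changed side of the limit. Part of the 108 could not move, so this count says little of robustness. Adding lncRNA reads alters Cfb alone. C3, C3ar1 and C5ar1 each have 1 listed transcript, which is protein-coding. For them, protein-coding transcripts only and FPKM without a pseudocount repeat the main ratio, apart from rounding. Leaving out a replicate was not possible with 1 library per group. With log2(FPKM + 1), C3 moved to -0.86 in G1 and -0.54 in G3, and 1 gene was past the limit in G1. With the total of both tables, C3ar1 moved to -1.05 in G1, where that scaling shifts all ratios by -0.20. Adding the lncRNA reads within Cfb brought Cfb to 20 reads or more and below 0.5 in G1. Requiring the whole interval past the limit, an alternative chosen after seeing the data, left 1 gene in G1 (C5ar1), 3 in G2 and 2 in G3. The share of all genes past the limit was not computed under this rule or with log2(FPKM + 1). The log2 ratio of C5ar1 in G2, which rests on 7 reads in mOC-ABs, was -3.29 with log2(FPKM + 1) and between -5.20 and -4.76 under the other alternatives.

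Without a minimum of reads, 3036, 3382 and 3012 of all genes were past the limit in G1, G2 and G3 in place of 1389, 1670 and 1313, and with at least 100 reads 770, 988 and 642 were. Of the 21 other complement genes, 7 (5 lower and 2 higher) in G1 and 9 (7 lower and 2 higher) in G2 were past it without a minimum. These are 33.3% and 42.9%, beside 19.3% and 21.5% of all genes. With FPKM, of the 16 with at least 20 reads, 4 were past it in G1, 2 lower and 2 higher in place of 3 and 0. In G2 4 were past it, all lower, in place of 5. In G3 8 were, 7 lower and 1 higher in place of 6 and 0. C4b, at 0.726 FPKM in BMM-ABs and 0.520 in mOC-ABs, was then inside the limit in G2. The share of all genes was not computed by FPKM. By FPKM the share of Cfp on Cfp-201 was 93.6% in BMM-ABs and 93.0% in pOC-ABs.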

Other observations

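In a search of 5000 bases to either side of each gene, made after the ratios were known, 2 transcripts of the lncRNA table were found. NONMMUT058741.2 (chromosome 6, 122842384 to 122845341) lies 1797 bases beyond the 3′ end of C3ar1 and had 12 reads in BMM-ABs against 5 in pOC-ABs and 31 in mOC-ABs. Relative to the reads of both tables its log2 ratio in G2 was 1.51 (95% interval 0.51 to 2.61), above 0, where that of C3ar1 was below 0. NONMMUT071992.2 (chromosome X, 20931854 to 20932758) lies 299 bases before the 5′ end of Cfp and had 6, 2 and 5 reads, in the same order.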
